A study of Mus musculus with 10 samples.

Results

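The regions described here are stretches of chromatin that carried acetylation of histone H3 at lysine 27 (H3K27ac) in mouse cortical neurons both before and after depolarization, and that met no region of H3 lysine 4 monomethylation (H3K4me1) in either state. They were chosen from the deposited peak lists in 3 steps. An untreated H3K27ac region on chromosomes 1 to 19 had to overlap a KCl H3K27ac region by at least 1 bp, and it had to overlap neither an untreated nor a KCl H3K4me1 region. The rule left 1623 regions of 40467 shared H3K27ac regions, themselves part of 65486 regions in the untreated list.

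Cortical neurons from C57BL/6J mice were grown in primary culture to day 6 in vitro and kept overnight in 3% serum. They were then left untreated or held in 50 mM KCl for 45 min. KCl depolarizes the membrane, opens voltage-gated calcium channels and switches on activity-dependent transcription. Chromatin immunoprecipitation and sequencing was done with 4 antibodies: against H3K27ac, H3K4me1, Gtf3c1 and Rpc155. There was 1 peak list for each antibody in each condition. The series design text gives 3 biological replicates, but not whether they were pooled. Cell type markers matched the label: untreated H3K27ac regions lay at 6 of 6 glutamatergic, 4 of 5 GABAergic and 4 of 5 general neuronal marker genes. They lay at 3 of 5 astrocyte and 1 of 5 oligodendrocyte-lineage genes, and at 0 of 5 microglial and 0 of 3 endothelial ones. The part of these other cells in the results was not tested.

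H3K27ac marks active promoters and active enhancers. H3K4me1 typically covers enhancers and the flanks of active promoters, while the core of a strong CpG-rich promoter carries trimethylation in its place. Gtf3c1 is the largest subunit of TFIIIC, the factor that binds inside tRNA genes and brings in RNA polymerase III, and Rpc155 is the largest subunit of that polymerase. TFIIIC also binds many sites that have no polymerase III.

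Some of the H3K4me1-free regions lay at promoters, and the promoters below belong to members that the results turn on. Each line gives the 150 bases before an annotated start, 5′ to 3′ on the gene's strand (RefSeq, GRCm38.p6), next to or within an H3K4me1-free region. Ino80, Tcf3, Tob1, Rtn4 and Hnrnpk are among the 10 regions with the strongest H3K27ac, Med29 is among the 10 with the largest KCl-to-untreated ratio where the KCl summit lies inside the region, and Zfp606 and Zfp317 stand far from any H3K4me1. Capitals mark GGGCGG (the GC box), CCAAT, CCGGAAGT (the ETS site) and TATAAA on either strand.
Ino80 (chr2:119477688-119477837, minus strand): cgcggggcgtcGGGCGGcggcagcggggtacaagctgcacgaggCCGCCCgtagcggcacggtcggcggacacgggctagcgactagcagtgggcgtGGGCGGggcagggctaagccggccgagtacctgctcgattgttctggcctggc
Tcf3 (chr10:80433636-80433785, minus strand): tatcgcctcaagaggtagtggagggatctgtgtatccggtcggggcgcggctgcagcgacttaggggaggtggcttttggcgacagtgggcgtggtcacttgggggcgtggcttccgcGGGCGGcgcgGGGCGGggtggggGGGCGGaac
Tob1 (chr11:94211304-94211453, plus strand): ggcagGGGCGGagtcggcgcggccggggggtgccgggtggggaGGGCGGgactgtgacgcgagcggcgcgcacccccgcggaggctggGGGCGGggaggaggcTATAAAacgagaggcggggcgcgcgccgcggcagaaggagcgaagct
Rtn4 (chr11:29692748-29692897, plus strand): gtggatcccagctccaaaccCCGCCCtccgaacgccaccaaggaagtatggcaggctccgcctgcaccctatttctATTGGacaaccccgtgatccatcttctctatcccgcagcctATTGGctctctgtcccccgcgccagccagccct
Hnrnpk (chr13:58402118-58402267, minus strand): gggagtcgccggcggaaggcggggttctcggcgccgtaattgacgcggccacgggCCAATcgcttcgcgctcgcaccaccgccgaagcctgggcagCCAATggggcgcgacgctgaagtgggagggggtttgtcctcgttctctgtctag
Med29 (chr7:28392691-28392840, minus strand): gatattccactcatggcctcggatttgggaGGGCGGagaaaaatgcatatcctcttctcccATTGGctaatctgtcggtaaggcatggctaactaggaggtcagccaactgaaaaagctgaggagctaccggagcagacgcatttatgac
Zfp606 (chr7:12478155-12478304, plus strand): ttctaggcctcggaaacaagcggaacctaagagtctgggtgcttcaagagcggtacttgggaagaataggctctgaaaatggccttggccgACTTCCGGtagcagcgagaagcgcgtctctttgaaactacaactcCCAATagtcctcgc
Zfp317 (chr9:19622154-19622303, plus strand): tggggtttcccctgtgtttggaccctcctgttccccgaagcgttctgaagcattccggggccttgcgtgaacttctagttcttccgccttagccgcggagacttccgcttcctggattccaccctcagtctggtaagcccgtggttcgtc
Ino80, Tcf3 and Tob1 each hold 3 GC boxes, and Tob1 also has a TATA box. Rtn4 and Hnrnpk each hold 2 CCAAT boxes. The Zfp606 promoter has 1 ETS site and 1 CCAAT box, and the Zfp317 stretch holds none of these motifs.

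H3K27ac and H3K4me1 values were both used by the rule, so they are given as descriptions. Of the 1623 regions, 3 ended 1 bp from an H3K4me1 region and 34 within 10 bp. On the other side of the limit, 6 shared regions met H3K4me1 by only 1 bp and 50 by at most 10 bp, against a median overlap of 783 bp. Lack of H3K4me1 was found in 4.01% (95% interval 3.82 to 4.21) of the shared regions. Among untreated H3K27ac regions that were not listed after KCl it was found in 21.5% (5227 of 24303). All intervals are exact Clopper-Pearson intervals and cover counting error over regions only. With 1 list a condition there was no replicate error and no test, and the read depth is unknown.

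The regions were narrow: their median width was 524 bp, against 1070 bp for the 37187 shared regions with H3K4me1 in both conditions, the comparison class used from here on and called marked regions. A further 1657 had H3K4me1 in 1 condition. The partner in the KCl list was wider, at a median of 935 bp. Of the 1572 distinct KCl partner regions, 786 (50.0%) themselves overlapped an H3K4me1 region. The absence of H3K4me1 therefore holds for the stretch listed in untreated cells, and for the whole of the KCl stretch in only 805 of the 1623.

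A start of a protein-coding or lncRNA gene lay within 1 kb of 600 of the regions, which is 37.0% (34.6 to 39.4), beside 32.2% of all shared regions. Starting from the KCl list instead, 1285 regions met the mirrored rule and only 12.1% (10.3 to 14.0) lay within 1 kb of a start. With starts of the promoter table alone it was 30.4%, and with no H3K4me1 allowed within 1 kb it was 10.4%. The share at starts thus depended on these choices. The share of all shared regions was not recomputed for the promoter table, so the excess under that setting is unknown. From the KCl list, 155 H3K4me1-free regions lay at starts and 1130 beyond, against 11745 and 24834 marked regions. With the 1 kb margin the counts were 39 and 337, against 12928 and 26717. Under both settings the share at starts was lower than in marked regions, so the excess was not kept. The regions at starts and the other 1023, called distal, are described apart.

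Regions at starts lay in gaps of H3K4me1. Their nearest H3K4me1 region was a median of 148 bp away, and 409 of 600 (68.2%, 64.3 to 71.9) had H3K4me1 within 1 kb on both sides. Distal regions were a median of 544 bp away, and 174 of 1023 (17.0%, 14.8 to 19.5) had it on both sides. No H3K4me1 lay within 1 kb on either side of 39 regions at starts (6.50%) and of 337 distal ones (32.9%). The distances ranged from 1 bp to 1392208 bp.

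**Figure D1:**
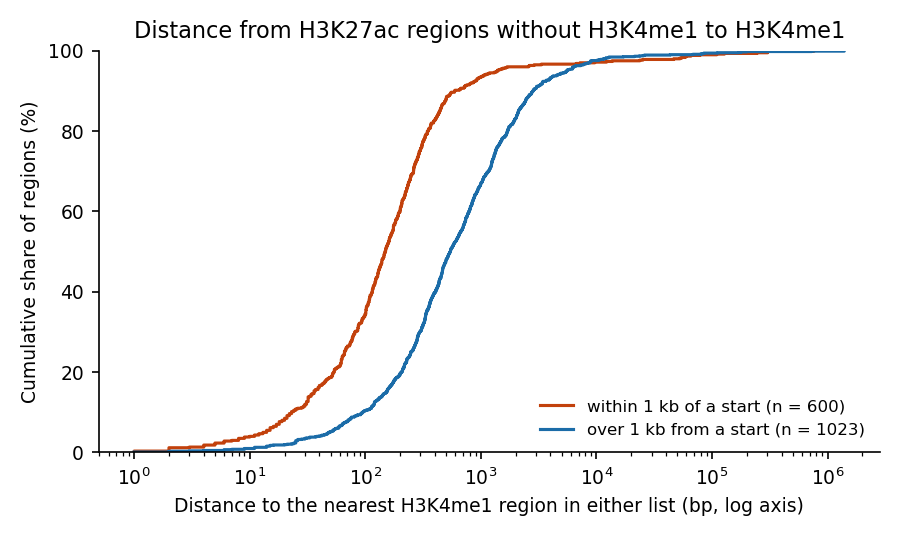
Cumulative share (y axis, %) of the H3K4me1-free regions against the distance in bp to the nearest H3K4me1 region of either list (x axis, log scale), for 600 regions within 1 kb of a start and 1023 beyond it. The curve for regions at starts lies to the left, with its median at 148 bp against 544 bp.

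At starts, the H3K27ac summit sat downstream. Among 469 regions with a summit within 1 kb of a start of known strand, 391 (83.4%, 79.7 to 86.6) had the untreated summit in the direction of transcription. The share was 77.1% (73.5 to 80.5) for regions with H3K4me1 in 1 condition and 69.9% (69.0 to 70.9) for marked regions. Only 197 of the 600 regions at starts (32.8%, 29.1 to 36.8) covered the start itself, against 67.2% (66.3 to 68.0) of marked regions at starts. Covering depends on width, which was not held here. The median width at starts was 622 bp for H3K4me1-free and 1440 bp for marked regions. The summit of the H3K4me1-free regions lay a median of 229 bp from the start.

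**Figure D2:**
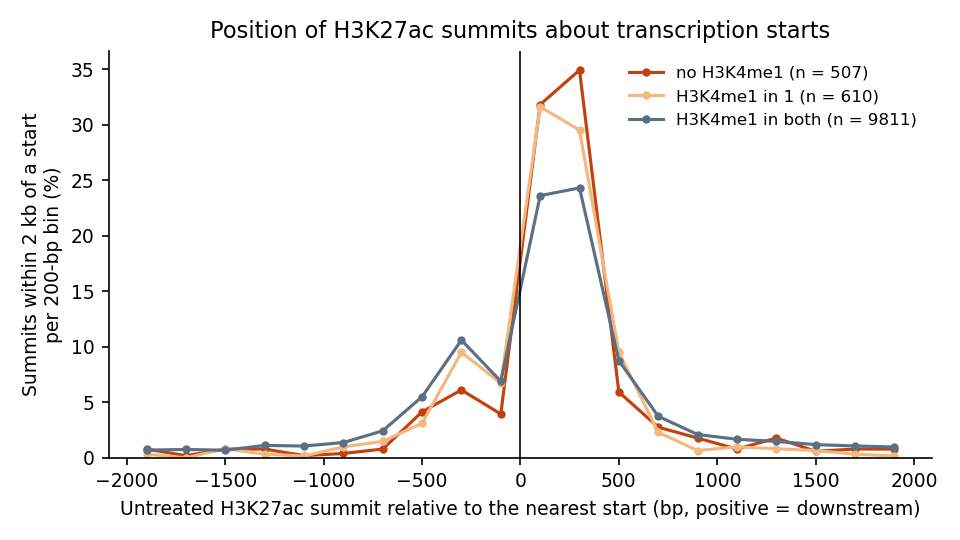
Share of untreated H3K27ac summits (y axis, %) in 200-bp bins by signed distance from the nearest start of known strand (x axis, bp, positive downstream), among summits within 2 kb. The 507 summits of H3K4me1-free regions are concentrated in the first bins downstream and have a lower upstream shoulder than the 9811 of marked regions.

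The strongest H3K27ac among the regions was found at promoters of genes of varied function. Fold enrichment, the authors' ratio of a summit to its local background, was 15.5 in untreated cells and 19.3 after KCl at Chaserr, a long noncoding RNA gene next to the chromatin remodeler gene Chd2. This region (chr7:73550994-73558454) was the widest, at 7461 bp, and ended 21 bp from H3K4me1. Lrp6, a Wnt co-receptor, had 14.5 and 13.2. Ino80, the ATPase of a nucleosome remodeling complex, had 13.2 and 16.1. Exo1, an exonuclease of DNA repair, had 13.1 and 11.2 in a stretch of 326 bp. Lack of H3K4me1 was thus also found at strongly acetylated promoters, among them some with a higher and some with a lower value after KCl.

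Mrpl48, a mitochondrial ribosomal protein gene, had 13 and 16.9, and its region also lay beside the start of Rab6a, a Golgi traffic GTPase. Tob1, an antiproliferative regulator, had 12.8 and 15, and its start lay 27 bp outside the region. Rtn4, which encodes the neurite growth inhibitor Nogo, had 12.6 and 13.6. Tcf3, an E-protein transcription factor, had 11.9 and 14.9. Hnrnpk, an RNA-binding protein gene that shares its promoter with Rmi1, had 11.8 and 16.1. Of the 10 strongest regions, 9 were at a start, and the last (chr3:96489036-96489375, 11.9 and 13.2) lay 19405 bp from a start and 8406 bp from the tRNA gene n-TNgtt12.

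Over the 600 regions at starts the median untreated fold enrichment was 5.08 (quartiles 3.68 and 6.73) and the KCl median 8.37 (6.21 and 11.0). Over the distal regions the medians were 2.72 (2.54 and 3.05) and 2.84 (2.57 and 3.51). In untreated cells 205 regions at starts (34.2%) and 21 distal regions (2.05%) exceeded a fold enrichment of 6. Marked regions had higher shares, 47.1% and 8.78%. Regions with H3K4me1 in 1 condition had 38.6% and 0.537%.

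The KCl-to-untreated ratio of fold enrichment was at least 1.5 at 482 regions (29.7%, 27.5 to 32.0), beside 21.2% of all shared regions. The values come from 1 list each and were not scaled between libraries. The ratio reached 1.5 at 334 of 600 regions at starts (55.7%, 51.6 to 59.7) and at 148 of 1023 distal ones (14.5%, 12.4 to 16.8). The other classes had the same order. The shares were 53.3% and 15.7% for regions with H3K4me1 in 1 condition, and 39.1% and 11.7% for marked regions. The ratio was at most 1/1.5 at 10 H3K4me1-free regions (0.616%), none of them at a start, beside 4.88% of all shared regions. H3K27ac chose the regions, so nothing is read from the difference to the background. Divided by the median of all shared regions, the ratio reached 1.5 at 22.6%.

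A partner summit can lie outside the untreated region, and then the ratio compares different places. The 10 highest ratios, 5.45 to 8.86, were all of this kind. They were narrow distal stretches inside KCl regions of 5894 to 21777 bp. The top one (chr13:119684287-119684660) had 2.07 against 18.4, and it and 2 more lay in the same KCl region 18484 bp wide near Hmgcs1, the cytosolic HMG-CoA synthase of sterol synthesis. Another was near Insig1, a regulator of the sterol response, with 2.67 against 16.1. A pair lay in 1 KCl region of 17463 bp, 76297 and 79008 bp from the start of brachyury, the nearest named gene.

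The KCl summit lay inside the untreated region at 1008 regions (62.1%). This restriction was chosen after the data were seen. Of these, 29.3% (26.5 to 32.2) had a ratio of at least 1.5, beside 17.4% of all shared regions with the summit inside. The share was 53.1% (48.7 to 57.5) of 518 regions at starts but 4.08% (2.51 to 6.23) of 490 distal ones. Regions with H3K4me1 in 1 condition had 49.8% and 4.55%, and marked regions 35.7% and 5.97%, so this split was not particular to the H3K4me1-free regions.

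**Figure D3:**
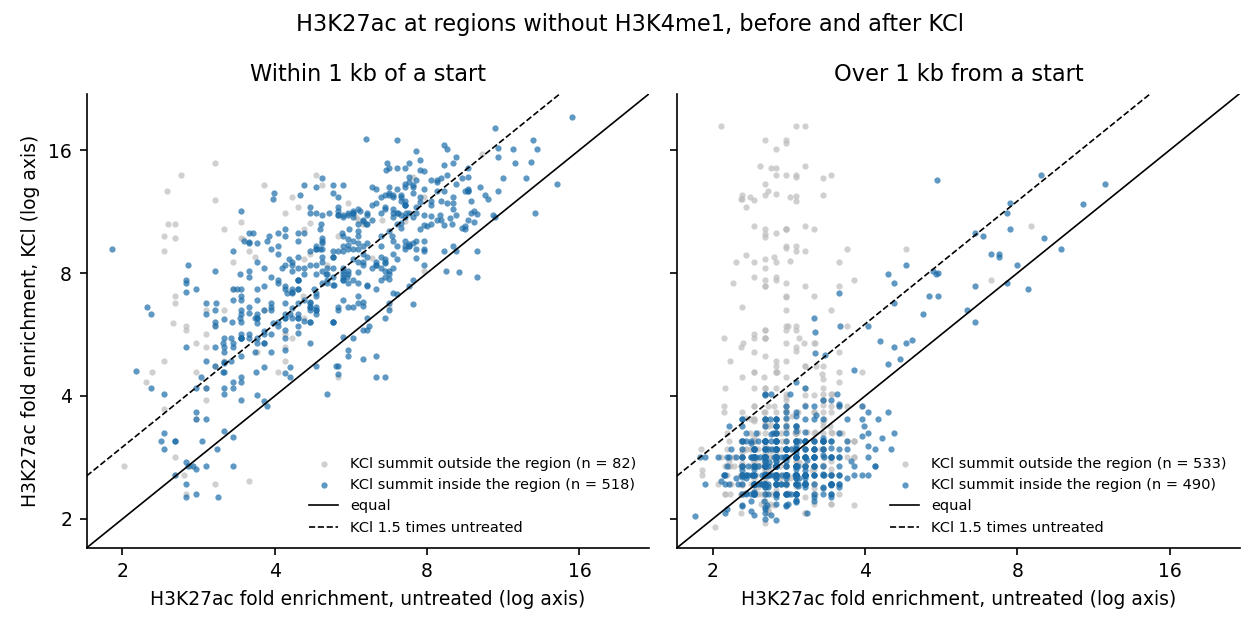
H3K27ac fold enrichment in untreated cells (x axis, log scale) against KCl (y axis, log scale) for each H3K4me1-free region, left within 1 kb of a start and right beyond it. Blue points have the KCl summit inside the region and gray points outside. The solid line marks equal values and the dashed line a ratio of 1.5; regions at starts lie mostly above equality, while distal ones cluster near a fold enrichment of 3 except for gray points.

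With the summit inside, the highest ratio was at Hyls1, a centriole and cilium gene, where fold enrichment was 1.91 in untreated and 9.18 in KCl cells, a ratio of 4.81. Ccnd3, a D-type cyclin gene, had 3.43 and 11.3. Coq10b, a coenzyme Q binding protein gene, had 3.99 and 12.6. Dnajb4, a heat-shock cochaperone gene, had 3.96 and 12.2. Med29, a subunit of the Mediator complex, had 4.57 and 13.1. Wdfy2, Gpn1, Mtr, Nfatc2ip and Tbc1d23 completed the 10, with ratios of 2.81 to 3.11. All 10 lay 48 to 232 bp from a start without covering it, and none was an immediate-early gene. Over all regions, summit inside or not, the 5 lowest ratios were 0.568 to 0.645, all at distal regions. Among them were 1 inside D5Ertd615e (3.81 and 2.16) and 1 inside Chd2 (3.43 and 2.18), both with the KCl summit outside, so that different places are compared.

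Gtf3c1 was not used by the rule. In untreated cells it overlapped 489 of the 1623 regions (30.1%, 27.9 to 32.4), beside 55.0% of all shared regions. After KCl it overlapped 564 (34.8%, 32.4 to 37.1), beside 48.1%. At starts Gtf3c1 met 66.2% (62.2 to 69.9) in untreated and 77.0% (73.4 to 80.3) in KCl cells, and distally 8.99% (7.31 to 10.9) and 9.97% (8.20 to 12). Marked regions had 75.1% and 77.1% at starts and 48.6% and 36.1% beyond. Regions with H3K4me1 in 1 condition were close to the H3K4me1-free ones, with 68.9% and 76.3% at starts and 10.3% (8.43 to 12.4) and 12.2% (10.2 to 14.5) beyond. The low distal share was thus not particular to regions free of H3K4me1 in both conditions.

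**Figure D4:**
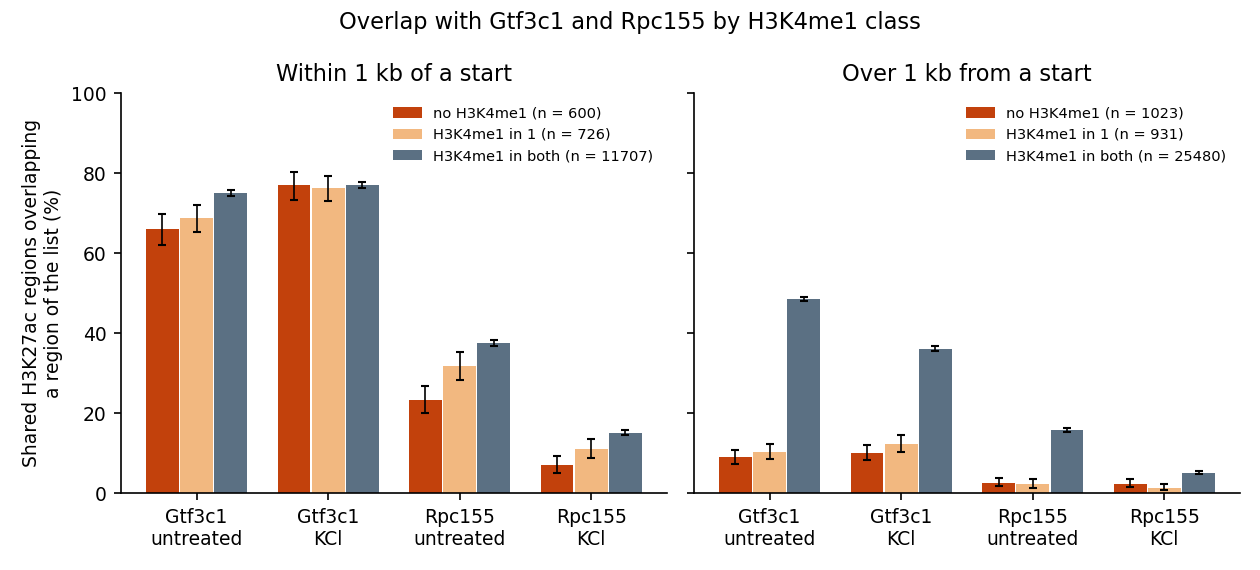
Share of shared H3K27ac regions (y axis, %) that overlapped a region of each Gtf3c1 and Rpc155 list (x axis), by H3K4me1 class, left within 1 kb of a start and right beyond it; bars give the share and error bars the exact 95% interval over regions. Beyond starts, Gtf3c1 met 8.99% of H3K4me1-free and 48.6% of marked regions in untreated cells.

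Overlap by 1 bp depends on width, and Gtf3c1 overlap also went with H3K27ac strength, so both were held within bands. Among distal regions with a fold enrichment of 2.5 to 3.5, Gtf3c1 met 7.30% (5.47 to 9.51) of 685 H3K4me1-free and 32.2% (31.3 to 33.0) of 10996 marked regions in untreated cells. With width also held to 400 to 600 bp, it met 8.37% (4.95 to 13.1) of 203 and 26.8% (25.2 to 28.5) of 2769. At starts the order was the reverse in narrow regions when width alone was held. Among those of 300 to 1000 bp, Gtf3c1 met 61.6% of the H3K4me1-free and 48.9% of the marked regions, a difference of 12.7 points (7.66 to 17.8). Across all widths that difference was -8.89 points (-12.8 to -4.95). With fold enrichment held to 2.5 to 3.5 and width to 400 to 600 bp, Gtf3c1 met 41.0% (25.6 to 57.9) of 39 H3K4me1-free regions at starts. It met 28.5% (24.4 to 32.9) of 456 marked ones. These intervals overlap, so the reverse order is not shown with both held.

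**Figure D5:**
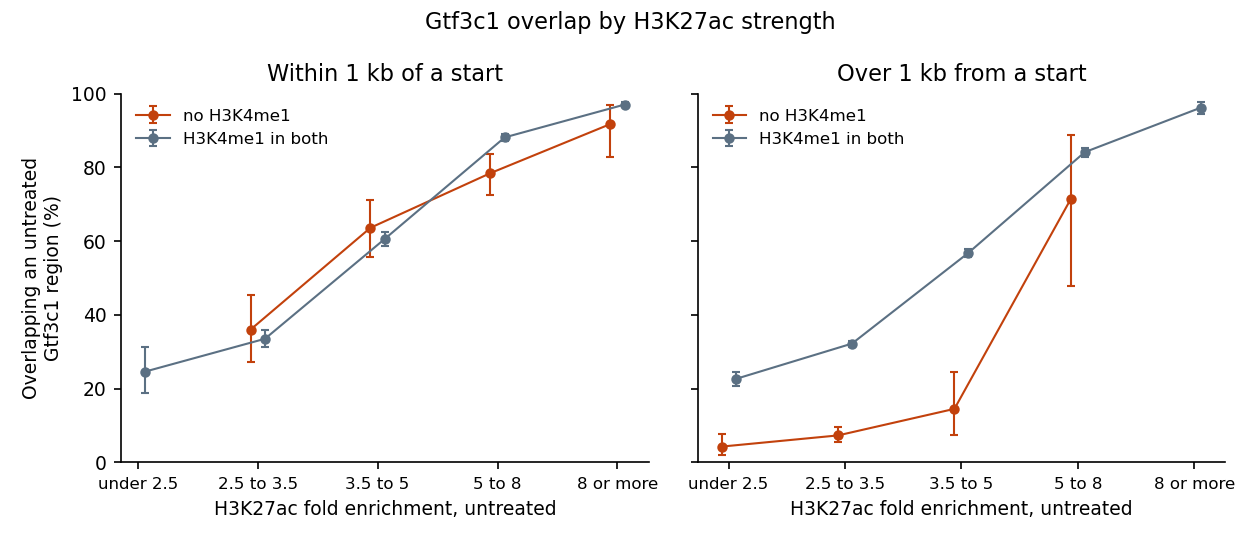
Share of regions overlapping untreated Gtf3c1 (y axis, %) by band of untreated H3K27ac fold enrichment (x axis), for H3K4me1-free and marked regions, left within 1 kb of a start and right beyond it; error bars are exact 95% intervals and bands with under 20 regions are not drawn. At starts the shares were 36.0% and 33.5% at 2.5 to 3.5, 78.4% (72.5 to 83.5) and 88.1% (87.2 to 89.0) at 5 to 8, and 91.7% and 97.0% at 8 or more, while beyond starts the H3K4me1-free regions lie lower in the 3 weaker bands.

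Where Gtf3c1 was listed in both conditions, at 416 regions, its own fold enrichment had a median of 3.94 in untreated and 4.66 in KCl cells. The median KCl-to-untreated ratio was 1.16 (quartiles 0.951 and 1.40), and 80 regions (19.2%) reached 1.5 while 14 (3.37%) were at 1/1.5 or below. The 15001 such marked regions had a median ratio of 1.00 (0.803 and 1.26), and shares of 12.4% and 11.9%. At starts alone the medians were nearer, 1.16 and 1.10. The shares there were also nearer, 18.9% and 3.06% against 16.7% and 4.93% of marked regions. Gtf3c1 was listed in KCl cells alone at 148 of the H3K4me1-free regions (9.12%) and in untreated cells alone at 73 (4.50%). Marked regions had 8.72% and 16.6%, so the KCl-alone shares were close. At starts alone the counts were 103 (17.2%) and 38 (6.33%), and marked regions there had the same order, with 1201 (10.3%) and 957 (8.17%). Beyond starts the H3K4me1-free counts were 45 (4.40%) and 35 (3.42%), and marked regions had 2040 (8.01%) and 5204 (20.4%).

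H3K27ac values of the regions differed by Gtf3c1 status. At starts the median KCl-to-untreated ratio of H3K27ac was 1.58 (quartiles 1.31 and 1.87) at 359 regions with Gtf3c1 in both conditions and 1.66 (1.44 and 2.04) at 103 with it in KCl cells alone. It was 1.47 (1.11 and 1.94) at 100 with no Gtf3c1. These quartiles overlap, and regions without Gtf3c1 were also the weaker ones, with an untreated H3K27ac median of 3.30 against 5.84.

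Rpc155, also unused by the rule, overlapped 167 regions in untreated cells (10.3%, 8.85 to 11.9), beside 21.8% of all shared regions. After KCl it overlapped 66 (4.07%, 3.16 to 5.14), beside 8.02%. The untreated Rpc155 list held 12531 regions and the KCl list 4251. With the untreated list cut to the length of the KCl list, its share was 5.18% (4.15 to 6.37), nearer to the KCl share. At starts Rpc155 met 23.3% in untreated and 7.0% in KCl cells, and marked regions there had 37.5% and 15.1%. These shares also depend on width. In regions of 400 to 600 bp, untreated Rpc155 met 7.33% (5.13 to 10.1) of the H3K4me1-free and 8.38% (7.65 to 9.17) of the marked ones. At 600 to 1000 bp it met 12.5% and 12.9%, and at 1000 to 2000 bp 21.7% (16.6 to 27.6) and 25.4% (24.6 to 26.2). These bands pool regions at starts with distal ones. At starts, the shares at 400 to 600 bp were 17.7% and 16.1%, so with width held they were closer. Across all widths, untreated Rpc155 met 2.64% of distal H3K4me1-free and 15.7% of distal marked regions. The distal shares stayed apart with width held, at 1.96% (0.723 to 4.22) and 6.62% (5.89 to 7.40) for 400 to 600 bp. After KCl, across all widths, the distal shares were 2.35% and 5.16%.

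The 44 regions with Rpc155 in both conditions fell into groups of very different strength. A tRNA gene lay within 1 kb of 23 of them, with a Rpc155 fold enrichment of 28.5 to 62.3 (median 50.6) in untreated and 25.6 to 62.5 (median 53.9) in KCl cells. The other 21 had medians of 4.07 and 3.81. In all, 25 H3K4me1-free regions lay within 1 kb of a tRNA gene (1.54%, 0.999 to 2.27), against 0.266% (0.216 to 0.324) of marked regions and 1.21% (0.739 to 1.86) of those with H3K4me1 in 1 condition. These 25 were near 48 of the 391 annotated tRNA genes, and 10 were on chromosome 13, which holds a large cluster of them. Gtf3c1 was listed at 22 in untreated and 23 in KCl cells, and 20 of the 25 had no protein-coding or lncRNA start within 1 kb.

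Acetylation beside tRNA genes was moderate, with a median fold enrichment of 3.81 in untreated and 7.43 in KCl cells. At some of these regions, n-TEttc4, n-TKctt28 and n-TGtcc2 among them, the KCl summit lay outside the region, so that different places are compared. At n-TLtag3, a leucine tRNA gene (chr11:69123721-69124444), Gtf3c1 had 26 and 38.2, the highest of all the regions, and Rpc155 had 50.2 and 59.9. H3K27ac there was 6.48 and 11.2. At n-TLcaa3, also for leucine, Gtf3c1 had 16.8 and 18.5 and Rpc155 62.3 and 58.3. At n-TGtcc3, for glycine, Gtf3c1 had 14.3 and 20.3, Rpc155 58.4 and 60.1, and H3K4me1 began 2 bp away. The regions beside n-TTtgt1 (threonine) and n-TYgta10 (tyrosine) met the same Gtf3c1 and Rpc155 regions, with 15.4 and 16 for Gtf3c1, and are not separate measurements of these factors. Rpc155 values at these genes were close in both conditions, while n-TKctt14, for lysine, had 53.5 and 33.2.

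Among the 44 with Rpc155 in both conditions, an untreated Rpc155 above 10 without a tRNA gene within 1 kb was seen at 2 regions. One covers the start of Slitrk3, a synaptic adhesion protein gene (chr3:73056519-73057763), 11171248 bp from the nearest annotated tRNA gene. Gtf3c1 there was 24.9 and 35.5, the second highest of all the regions, Rpc155 12.1 and 18.5, and H3K27ac 9.01 and 9.32. The other is beside the predicted gene Gm34755 (chr6:128798985-128800346), with Rpc155 of 55.7 and 53.2, Gtf3c1 of 10.6 and 13.6 and H3K27ac of 10.9 in both conditions. Cnot6, a deadenylase gene, showed the other pattern, with Gtf3c1 of 13.4 and 14.0 and no Rpc155 in either list. These 3 were picked after their values were seen, within the genes named by rank.

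A small set of regions at starts stood far from any H3K4me1. Of 42 regions more than 10 kb away, 17 were at starts. The genes named here were chosen after their distances were seen, and their kind was not compared with that of other regions at starts. Zfp317 (chr9:19622180-19622743) was 760168 bp from H3K4me1, with H3K27ac of 5.21 and 6.08 and Gtf3c1 in the KCl list alone, at 5.20. Zfp606 was 54654 bp away, with 9.90 and 10.7 and no Gtf3c1. Zscan25 was 46653 bp away, with 9.52 and 12.7 and no Gtf3c1. Both had Rpc155 in the untreated list alone, at 3.32 for Zfp606 and 3.57 for Zscan25. Zfp329 was 13682 bp away, with 9.65 and 10.8 and Gtf3c1 of 2.45 in the untreated list alone. Zfp960 and Zfp947 were weaker, at 3.17 and 2.79 in untreated cells. Acetylation at Zfp606, Zscan25 and Zfp329 was thus well above the median of regions at starts, without the H3K4me1 flanks that most of those had.

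Trim24, a chromatin reader gene, held 2 such regions, 25203 and 23714 bp from H3K4me1, with 3.18 and 6.22 in untreated cells and 5.27 and 11.8 after KCl. The region farthest from H3K4me1 of all, 1392208 bp, was at chr12:22905627-22906750, 103493 bp from a start, with 4.82 and 5.40. Several others of the 17 lay at predicted genes only.

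A region lay within 1 kb of the start of 639 protein-coding genes, which is 3.09% of 20665. For 407 of these (63.7%) it was the only shared H3K27ac region within 1 kb of the gene's start. Mitochondrial ribosomal proteins were at 7 of 78 genes (8.97%, 3.68 to 17.6): Mrpl18, Mrpl35, Mrpl41, Mrpl48, Mrpl50, Mrps10 and Mrps30. Mrpl50 had 6.09 and 10.5, Mrps30 4.82 and 9.32, and Mrpl35 6.35 and 4.46. Cytosolic ribosomal proteins were at 1 of 80, Rpl5 (7.62 and 8.68), and complex I subunits at 0 of 47. Zinc finger genes named Zfp were at 19 of 388 (4.90%, 2.97 to 7.54), the strongest of them Zfp869 (11.0 and 12.7). Proteasome genes were at 3 of 50, with Psmd6 at 7.62 and 11.6, Psmd7 at 5.84 and 10.5 and Psmd8 at 6.60 and 8.47.

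Immediate-early genes, which neurons switch on within minutes of depolarization, were at 0 of 34 while 33 had some shared H3K27ac region at a start. Synaptic genes were at 1 of 29, the adhesion gene Nlgn1 (6.60 and 8.64). RNA polymerase III machinery was at 1 of 30, Polr3a, which encodes Rpc155 itself (3.86 and 3.78, with Gtf3c1 of 3.59 and 4.13). Housekeeping genes were at 2 of 25, Vcp (6.06 and 17.0) and Vps29 (4.82 and 8.37). Replication-dependent histone genes were at 3 of 63, with H3c15 at 10.9 and 18.1 and H3c7 at 4.19 and 11.2, the latter with its KCl summit elsewhere. Of the splicing genes 1 of 32, Sf3b2, had a region. None of these counts has a test. Among the 10970 protein-coding genes with any shared H3K27ac region at a start, 639 are 5.82%. On that base mitochondrial ribosomal proteins had 9.09% (3.73 to 17.8), Zfp genes 6.05% (3.68 to 9.29), cytosolic ribosomal proteins 1.33% (0.0338 to 7.21) and immediate-early genes 0 of 33, with an upper bound of 10.6%. Each of these intervals includes 5.82%.

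Promoter sequence was not used by the rule. The RefSeq promoter table gave 300 bases, 250 before to 50 after the start, for 16457 of 20665 protein-coding genes and none on chromosome 18. H3K4me1-free regions covered the start of 181 of these promoters, and 589 promoters of 522 genes had their start within 1 kb of one. GC content had a median of 63.0% in the 181 covered promoters, as in promoters covered by marked regions (63.0%), and 57.0% in all. The CpG ratio, observed over expected, was 0.856 (quartiles 0.744 and 0.961), against 0.802 (0.638 and 0.936) in the marked class and 0.586 in all. Of the stretches printed above, Ino80 held 21 CpG in 150 bases, Tob1 23, Rtn4 8, Zfp606 9, Zfp317 10 and Med29 5.

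Motifs were counted as exact letters on both strands. CCAAT was found in 54.0% (49.9 to 58.1) of the 589 promoters within 1 kb of an H3K4me1-free region. It was found in 36.2% (35.3 to 37.2) of 9549 promoters within 1 kb of a marked region and of no H3K4me1-free one, and in 38.1% of all. Hnrnpk, Rtn4 and Med29 above are examples. In the 181 covered promoters it was in 42.0% (34.7 to 49.5), against 31.7% (30.6 to 32.7) in the covered marked class. CCGGAAGT was in 11.9% (9.38 to 14.8) of the 589 and 8.77% (8.21 to 9.35) of the 9549, and in 5.28% of all. GGGCGG was in 71.8% (68.0 to 75.4) and 67.3% (66.3 to 68.2), and in 47.0% of all. The NRF1 site was in 0.679% (0.185 to 1.73) and 2.46% (2.16 to 2.79), and in 1.34% of all, which the first interval includes. TATAAA was in 5.43% and 6.12%, and in 12.7% of all. The activity-linked site TGACGTCA (CRE) was in 2.89% and 3.6%, and in 2.30% of all. TGAGTCA (AP-1), also activity-linked, was in 2.55% and 2.94%, and in 4.70% of all. A match is a description of letters only.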

How the data were processed

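Processed peak lists of chromatin immunoprecipitation sequencing were analysed, 8 lists from 4 antibodies in 2 conditions. The submitters' processing notes name Bowtie2, MACS2 and the build GRCm38 (mm10). Tool versions were not given in the sources used. Total chromatin served as control, per the series design text, and was not analysed here. The deposited lists give, per region, a fold enrichment (the authors' ratio of summit to local background), −log10 p and −log10 q as the authors' caller wrote them, and a deposited score of 10 times −log10 q, rounded down. No read counts are in the lists, so the depth behind a value is unknown. The lowest −log10 q was 1.30 to 1.46.

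The rule on members used the H3K27ac and H3K4me1 lists. The members and gene lists were chosen with earlier results of these data known. Each region was paired with the overlapping KCl region of highest −log10 q. Starts came from RefSeq (GRCm38.p6): strand-aware for 77.9% of protein-coding and lncRNA genes, otherwise both gene ends. Regions were named by the nearest start. Genes named in the text were the 10 highest by untreated H3K27ac −log10 q, the 10 highest and 5 lowest KCl-to-untreated ratios, the 10 highest with Gtf3c1 and with Rpc155 in both lists, the 5 farthest from H3K4me1, and up to 5 per gene list. Added after the data were seen were the 10 highest ratios with the KCl summit inside and the regions near a start over 10 kb from H3K4me1. Gene lists covered 155 of 159 symbols. Shares have exact Clopper-Pearson 95% intervals. The interval of a difference combines the half-widths of the 2 intervals as a root sum of squares. No test between conditions was made, since each has 1 list. The overlap code was tested on simulated regions and recovered 3000 of 3000. Python 3.11.15, pandas 2.3.3, numpy 2.4.6, scipy 1.17.1 and matplotlib 3.10.9 were used. Alternatives covered the overlap rule, an H3K4me1 margin, q thresholds, width, start distance, fold, list length and the starting list.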

Additional observations from a re-analysis of the deposited data

How the results depend on the processing

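The number of H3K4me1-free regions depended on how lack of H3K4me1 was defined. From 1623 it became 4268 when overlap had to reach 50% of the shorter region, 376 when no H3K4me1 was allowed within 1 kb, 639 with an H3K27ac q of 1e-05 or lower in both lists, 8830 when only the untreated summit had to be free of H3K4me1, and 805 when the KCl partner had to be free as well. It was 2339 with H3K4me1 limited to a q of 1e-05 or lower and 1285 from the KCl list. The last setting and the KCl partner, summit-inside, promoter-table and gene-end settings were added after seeing the data.

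The share at starts was 70.1% under the 50% overlap, 10.4% under the 1 kb margin, 81.5% under the H3K27ac q limit, 39.7% with starts within 2 kb, 30.4% with starts of the promoter table alone and 12.1% from the KCl list. Gtf3c1 shares in untreated and KCl cells were 52.6% and 55.6% (50% overlap), 7.71% and 10.6% (1 kb margin), 64.8% and 74.5% (H3K27ac q), 26.7% and 32.1% (300 to 1000 bp wide), 18.9% and 25.7% (Gtf3c1 q of 1e-05 or lower) and 10.2% and 11.8% (KCl list). Rpc155 shares in the same order were 20.5% and 7.19%, 0.532% and 0.266%, 24.4% and 9.23%, and 4.62% and 2.16% with the factor's own q limit. The untreated Rpc155 share was 8.80% among regions 300 to 1000 bp wide and 5.18% with lists of equal length. The share with a ratio of at least 1.5 was 43.3% (50% overlap), 9.04% (1 kb margin), 49.5% (H3K27ac q) and 22.6% (divided by the median), and 12.6% reached 2. The YY1 motif was in 1 of 181 covered promoters (0.552%, 0.014 to 3.04) without the 50 bases after the start. With them it was in 5 (2.76%, 0.903 to 6.33). It was also rarer without them in promoters covered by marked regions, 0.551% against 1.58%, and in all promoters, 0.259% against 0.896%.

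The difference in Gtf3c1 share between H3K4me1-free and marked regions beyond starts was negative under the 5 alternatives run for it (50% overlap, 1 kb margin, H3K27ac q, 300 to 1000 bp, KCl list). In untreated cells it was -39.6 points and became -30.5 (50% overlap), -32.7 (H3K27ac q), -24.9 (300 to 1000 bp) and -42.8 (KCl list). In KCl cells it was -26.2 and became -20.2, -14.6, -13.6 and -29.0. At starts the untreated difference of -8.89 points turned to 3.76 (50% overlap) and 12.7 (300 to 1000 bp), and became -54.2 (1 kb margin, 39 regions) and -33.6 (KCl list). The KCl difference there, -0.142, became 6.68, 18.9, -38.9 and -30.9. The cause was not tested.

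No paired analysis was possible because each antibody and condition has 1 list. Without read counts or replicate lists, neither the error of a single fold enrichment nor a difference in depth between libraries can be seen, and leaving out a replicate could not be run.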

Other observations

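Some stretches of the genome held many H3K4me1-free regions. Of 2235 bins of 1 Mb with a shared H3K27ac region, 54 had 5 or more H3K4me1-free regions and together held 437 of the 1623. Bins chosen for 5 or more also hold more shared regions by that choice, and the rest of the 1623 lay outside them. The densest, on chromosome 9 from 113 to 114 Mb with Pdcd6ip as the nearest named gene, held 31 of 116 shared regions (26.7%), 28 of them distal, with a median fold enrichment of 2.79 and Gtf3c1 at 1. On chromosome 2 from 7 to 8 Mb, beside the RNA-binding protein gene Celf2, 27 of 105 were H3K4me1-free. On chromosome 13 from 6 to 7 Mb, near Pitrm1 and the transcription factor gene Klf6, it was 17 of 63. The bin on chromosome 4 from 47 to 48 Mb, near the orphan nuclear receptor gene Nr4a3 and Sec61b, held 14 of 83 and no Gtf3c1. By contrast, the bin of the tRNA and histone gene cluster on chromosome 13 from 21 to 22 Mb held 9 of 37, all 9 with Gtf3c1.

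Of the 1023 distal regions, 511 (50.0%, 46.8 to 53.1) lay inside a gene, against 63.9% (63.3 to 64.5) of distal marked regions. They were in 379 genes, 12 of which held 5 or more. Celf2 held 12 of its 144 distal shared regions. Myof, a ferlin membrane repair gene, held 11 of 18, D5Ertd615e 10 of 38, Lsamp, a neuronal adhesion gene, 9 of 35, and Dlg2, a postsynaptic scaffold gene, 8 of 92. Median fold enrichment in these genes was 2.54 to 3.05. By chromosome the H3K4me1-free share of shared regions ran from 2.58% (1.80 to 3.57) on chromosome 18 to 6.76% (5.74 to 7.90) on chromosome 13.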
